A study of Mus musculus with 2 samples.

Results

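The 10 genes described here take up, carry, activate, desaturate and store lipid: Lpl, Cd36, Fabp4, Fabp5, Acsl1, Scd1, Plin2, Apod, Apoe and Adipoq. They were chosen by gene name, with earlier results of these data known, and all 10 were found among the 27998 genes of the count tables. Their levels were read in single cells of dorsal skin from wild type C57BL/6 mice aged 2 months. There was 1 control library and 1 library from skin treated with topical imiquimod (IMQ), an agonist of Toll-like receptor 7 that causes a psoriasis-like dermatitis in mice, on each of 5 days. Cells were freed by enzymes, cleared of dead cells and read by droplet sequencing of 3′ ends. The title of the series names dermal fat formation in neutrophilic skin inflammation as its subject. The number of mice behind a library is not stated in the labels. Each condition has 1 library, so each difference below is one between these libraries, without a test.

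Cells obtain fatty acids from lipoproteins or from the blood, and store what they do not use as triglyceride in droplets. Lipoprotein lipase, encoded by Lpl, releases fatty acids from triglyceride-rich lipoproteins. CD36 helps them across the membrane, fatty acid-binding proteins carry them in the cytosol, and acyl-CoA synthetases such as Acsl1 activate them. Scd1 inserts a double bond into saturated fatty acids, and perilipin 2, the product of Plin2, coats lipid droplets. Apolipoproteins D and E bind lipids outside the cell, and adiponectin, encoded by Adipoq, is a hormone secreted by mature adipocytes. In skin, lipid is stored in dermal adipocytes, made in sebaceous glands and built into the barrier by keratinocytes.

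The cells with at least 200 genes and at most 10% mitochondrial counts were 10297 for the control and 8499 for the IMQ library. They held 121631549 and 141358594 unique molecular identifiers (UMIs, counts of distinct captured molecules), with a median of 9596 and 12650 per cell. The libraries shared 23 cell barcodes. The mice were described as female, but Xist had 10 control and 13 IMQ UMIs, and the Y-linked gene Ddx3y had 15130 and 10697, so neither library matched that description. A level is the share of a gene's UMIs in the summed UMIs of a class of cells, in counts per 1000000 (CPM). Values in parentheses after a level or a ratio are exact 95% intervals, which cover counting error only, not differences between animals. Free RNA, which leaks from broken cells into every droplet, was estimated for each class from markers of another lineage, at 6.9% of the UMIs of control and 3.63% of those of IMQ fibroblasts. A gene is called higher or lower when it had at least 20 UMIs over both libraries, its CPM were at least 2-fold apart and the interval of the ratio did not hold 1.

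Cells were assigned to 16 lineages by markers, none of which was one of the 10 genes. In 6 lineages each library had at least 50 cells, and these were compared. Fibroblasts numbered 6934 in the control and 3686 in the IMQ library, keratinocytes 1593 and 2098, and macrophages and monocytes 77 and 270. T and NK cells numbered 209 and 349, pericytes and smooth muscle cells 224 and 159, and Schwann cells 161 and 164. Checked against separate markers, each of the 6 had a higher median of UMIs per cell for its own list than for the next list (a median of 59 against 7 in control fibroblasts, and 9 against 7 in control pericytes). Blood endothelial cells, with 39 control and 126 IMQ cells, are given as values only. In the control library they had fewer UMIs of their own check markers than of the dendritic cell list, a median of 9 against 13. The dendritic list was also the next list in fibroblasts, keratinocytes, macrophages and monocytes, and pericytes of both libraries, and in IMQ T and NK cells. No cell met the sebocyte gate, and the mature adipocyte gate took 0 control and 2 IMQ cells. The exact interval of 0 of 10297 control cells reaches 0.0358%.

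**Figure D1:**
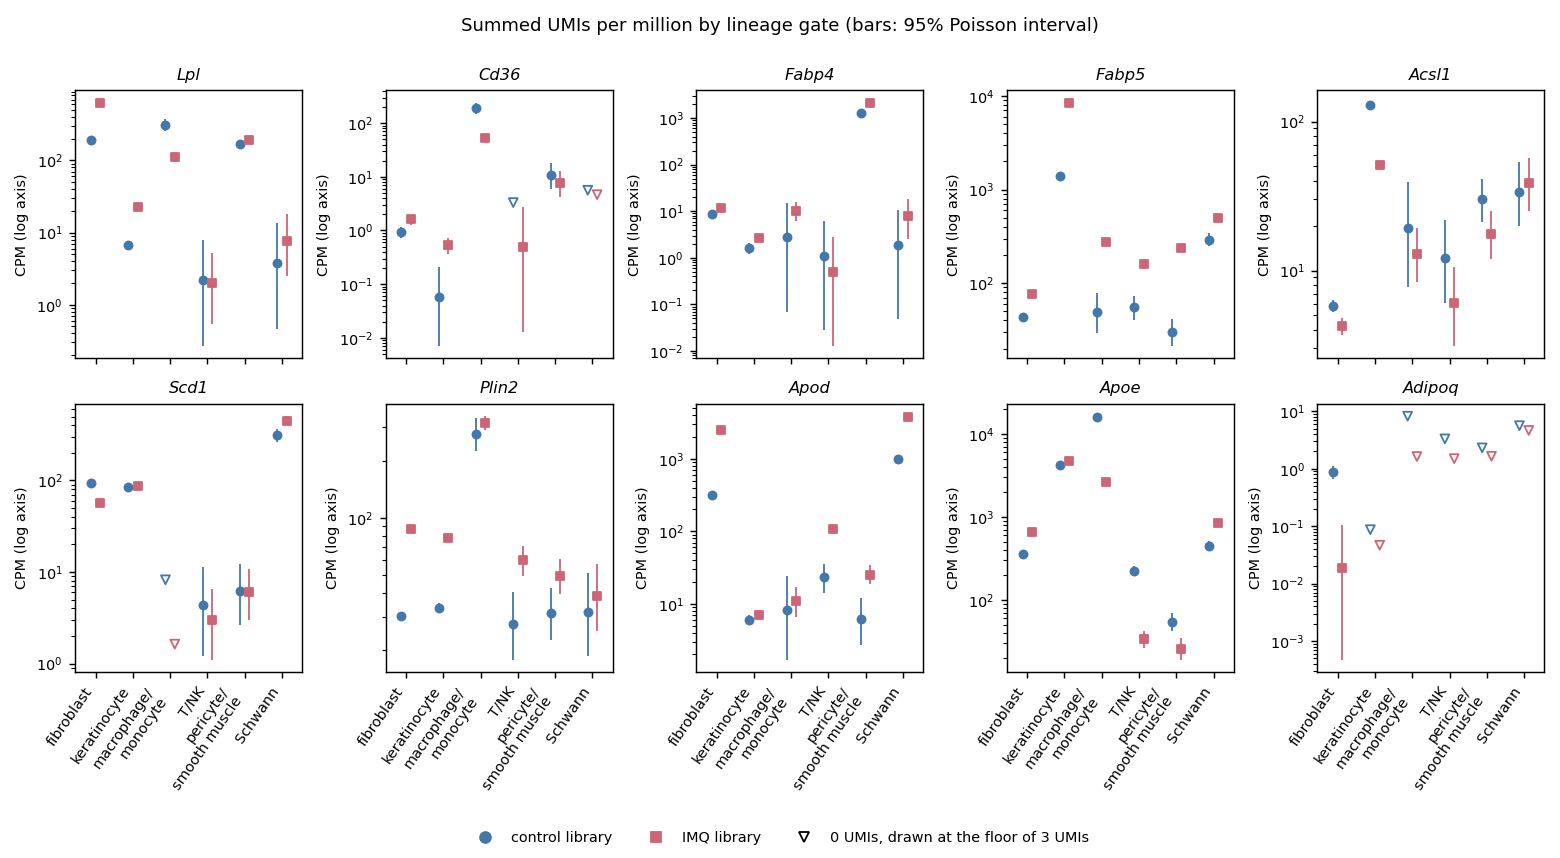
Each panel shows 1 gene, with CPM on a log axis for 6 lineages in the control library (circles) and the IMQ library (squares). Bars are 95% Poisson intervals, and open triangles mark classes with 0 UMIs, drawn at the level of 3 UMIs. Fabp5 is highest in keratinocytes and Scd1 in Schwann cells in both libraries, whereas Apoe is led by macrophages and monocytes in the control library and by keratinocytes in the IMQ library.

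The genes had different lead lineages. Among the 6 lineages, 8 of the 10 genes were highest in the same lineage in both libraries. Fabp4 was led by pericytes and smooth muscle cells and Fabp5 by keratinocytes. Acsl1 was led by keratinocytes too, though in the IMQ library its interval overlapped that of Schwann cells. Scd1 and Apod were led by Schwann cells, and Plin2 and Cd36 by macrophages and monocytes. Adipoq was seen in fibroblasts alone of the 6. The 2 genes whose lead lineage differed were Lpl and Apoe, and in both macrophages and monocytes led in the control library but not in the IMQ library. Lpl was led there by fibroblasts at 629 CPM (622 to 635), and Apoe by keratinocytes at 4750 CPM (4733 to 4767).

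In fibroblasts, 3 of the 10 genes were higher in the IMQ library, Lpl, Plin2 and Apod, and 1 was lower, Adipoq. Over all 14921 genes measured in fibroblasts, 10.9% were higher and 5.4% lower by the same rule. The median log2 ratio of the 10 was 0.802, beside 0.25 for all measured genes. Relative to that median shift the same genes stayed at least 2-fold apart, with log2 ratios of 1.46 for Lpl, 1.29 for Plin2, 2.72 for Apod and -5.79 for Adipoq. The count depends on how fibroblasts are delimited: with a stricter gate it was 5 higher and 1 lower, beside 11.1% and 5.4% of 14755 genes. With fibroblasts taken from clusters it was 7 higher and 0 lower, beside 10.7% and 4.36% of 14741 genes.

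Among the genes of uptake, Lpl (GRCm38 chromosome 8, 68880491 to 68907448, + strand) had 192 CPM (189 to 195) in control fibroblasts and 629 CPM (622 to 635) in IMQ fibroblasts. That is 3.27-fold higher (3.21 to 3.34), from 14350 and 33670 UMIs, where free RNA could give 8.7 and 9.58 CPM. The Lpl signal was spread over many cells, 901 control and 407 IMQ cells holding 50% of the UMIs, and the highest cells had 0.286% and 0.368% of them. The fatty acid transporter gene Cd36 (chromosome 5, 17781690 to 17888801, - strand) was low, with 70 and 86 UMIs, or 0.937 and 1.61 CPM.

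Fabp4 (chromosome 3, 10204088 to 10208576, - strand), a carrier abundant in adipocytes and in capillary endothelium, had nearly equal UMIs in fibroblasts, 639 in the control and 636 in the IMQ library. The levels were 8.56 CPM (7.91 to 9.25) and 11.9 CPM (11 to 12.8), a log2 ratio of 0.47. The spread over cells differed. In the control library 1 cell held 312 of the 639 UMIs and another held 195. In the IMQ library the highest cell held 29 of 636. Without the highest cell of each library Fabp4 stood at 4.38 and 11.3 CPM, a log2 ratio of 1.37, and was called higher. That made 4 of the 10 genes higher and 1 lower, beside 10.8% and 5.52% of all genes counted that way. Of the 327 control UMIs left, 195 were in 1 cell. A Fabp4 UMI was found in 0.736% of control and 5.75% of IMQ fibroblasts, and in 0.478% and 0.287% of T and NK cells, whose median depth was 3677 and 4658 UMIs against 9667 and 13526 in fibroblasts. With each cell thinned to 2000 UMIs the fibroblast shares were 0.313% of 6703 and 1.59% of 3593 cells deep enough, and those of T and NK cells 0% and 0%.

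The neighbouring gene Fabp5 (chromosome 3, 10012548 to 10016607, + strand), a carrier typical of the epidermis, stood at 43.1 and 76.5 CPM in fibroblasts. Free RNA was estimated to give 31.6 and 152 CPM, more than was seen in the IMQ library, so this level cannot be told from background. There 1 fibroblast-gated cell held 987 of 4095 Fabp5 UMIs.

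Plin2 (chromosome 4, 86648386 to 86670060, - strand), which coats droplets, had 30.3 CPM (29 to 31.5) in control and 87.8 CPM (85.4 to 90.4) in IMQ fibroblasts, 2.90-fold higher (2.76 to 3.05). No single cell carried it, with 15 and 22 UMIs in the highest cells. Acsl1 (chromosome 8, 46471037 to 46536051, + strand) was low, at 5.81 and 4.24 CPM, of which free RNA could give 3.07 and 1.03 CPM. Scd1 (chromosome 19, 44394455 to 44407879, - strand), the desaturase, went the other way without reaching 2-fold: 93.5 CPM (91.4 to 95.8) in the control and 56.9 CPM (54.9 to 59) in the IMQ library, 1.64-fold lower (1.57 to 1.72).

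Of the apolipoproteins, Apod (chromosome 16, 31296192 to 31314808, - strand) was furthest apart, with 318 CPM (314 to 322) in control and 2480 CPM (2466 to 2493) in IMQ fibroblasts, 7.79-fold higher (7.69 to 7.90). An Apod UMI was detected in 77.5% and 95.5% of fibroblasts, and in 37.4% and 78.3% of those thinned to 2000 UMIs. In keratinocytes, with a median of 16497 and 25486 UMIs, the shares were 5.52% and 12.4%, and 0.638% and 1.36% when thinned. Apoe (chromosome 7, 19696109 to 19699188, - strand) was 1.84-fold higher (1.81 to 1.87), at 363 and 666 CPM, and was not called. Free RNA could give 109 and 95.4 CPM of that.

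**Figure D2:**
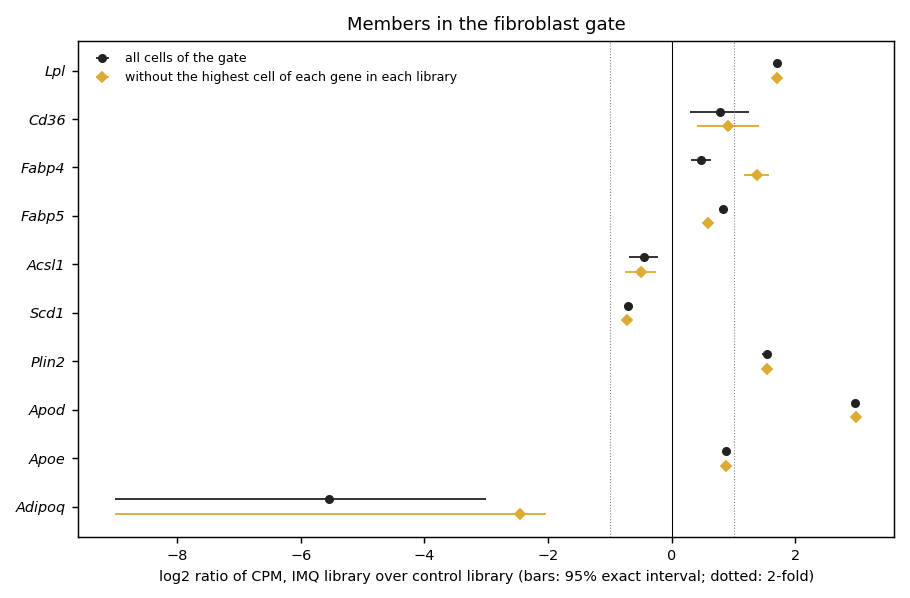
Log2 ratios of CPM, IMQ over control library, for the 10 genes in fibroblasts, with exact 95% intervals (for Adipoq the lower end is drawn short). Circles use all cells of the gate and diamonds leave out, for each gene, the cell with most UMIs in each library. Lpl, Plin2 and Apod sit beyond the dotted 2-fold line with and without that cell, and Fabp4 crosses it, from 0.47 to 1.37, once that cell is left out.

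Apod and Plin2 were 2 of the 3 genes higher in IMQ fibroblasts, and their upstream sequences are shown because the genes were higher together. They are the 250 bases before the start in RefSeq's promoter table for GRCm38.p6, which matched 6 of the 10 genes. Capitals mark matches, on either strand, to any of 6 motifs: the DR1 element bound by PPAR and RXR dimers, the core promoter box TATAAA, the NF-Y box CCAAT, the E-box CACGTG, the element TTGCNNAA that resembles C/EBP sites, and the AP-1 element TGAGTCA. Plin2 lies at chr4:86670060-86670309 on the - strand and Apod at chr16:31314809-31315058 on the - strand.
Plin2: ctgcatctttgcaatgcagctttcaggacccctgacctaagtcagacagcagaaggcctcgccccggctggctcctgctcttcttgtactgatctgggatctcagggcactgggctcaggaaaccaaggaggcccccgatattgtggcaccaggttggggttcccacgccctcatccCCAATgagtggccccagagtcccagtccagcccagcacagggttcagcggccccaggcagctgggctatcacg
Apod: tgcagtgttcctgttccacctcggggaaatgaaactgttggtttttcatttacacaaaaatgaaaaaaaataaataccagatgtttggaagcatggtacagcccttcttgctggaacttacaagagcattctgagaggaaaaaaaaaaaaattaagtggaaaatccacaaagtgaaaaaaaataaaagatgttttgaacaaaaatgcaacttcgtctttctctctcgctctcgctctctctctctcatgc
The Plin2 window held 1 CCAAT match, a motif present in 33.8% of all 32851 windows of that length. The Apod window held none of the 6. The DR1 element was present in 0.0335% of windows, TATAAA in 12.4%, CACGTG in 6.02%, TTGCNNAA in 9.56% and TGAGTCA in 4.46%, and none of these was found in either window. A match is a run of letters and not a bound site.

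Adipoq (chromosome 16, 23146536 to 23158028, + strand), the marker of mature adipocytes in the set, came from few cells in either library. In the control library 2 cells held all 65 UMIs, and both passed the fibroblast gate. The first had 42 Adipoq UMIs, 312 of Fabp4, 21 of Plin1, 28 of Cidec, 13 of Retn and 751 of Cfd, the last 4 being adipocyte genes, with 950 UMIs of Col1a1, a fibroblast collagen. The second had 23 Adipoq UMIs, 195 of Fabp4 and 11 of Plin1, with 10 of Col1a1. In the IMQ library the cell with most Adipoq, 99 UMIs, met the mature adipocyte gate and had 578 UMIs of Fabp4, 109 of Cidec, 193 of Retn and none of Col1a1. A second cell of that gate had 4 Adipoq UMIs and 73 of Fabp4, and 3 other cells had 1 Adipoq UMI each. The call in fibroblasts, 65 against 1 UMIs or 46.6-fold lower (8.08 to 1869), rests on 2 control cells inside the gate, whereas the IMQ cells with most Adipoq lay outside it. Over all 12 adipocyte markers the fibroblast gate had 35.2 CPM in the control and 10.6 CPM in the IMQ library, with 1 and 2 of them at 0, and the 20 keratinocyte markers had 1321 and 539 CPM. Their part in the other fibroblast values was not tested, other than by leaving out the highest cell of each gene.

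The fibroblasts were further divided by subtype markers, and 4 subtypes had at least 50 cells in each library. Across these 4, genes were called higher in 13 cases and lower in 2. The background in the 4 subtypes was between 6.75% and 14.3% higher and between 2.42% and 5.2% lower. When ratios were divided by the median of their subtype, 7 cases remained past 2-fold higher. The share of all genes under that scaling was counted over all fibroblasts only, where 7.14% were higher and 7.57% lower.

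Pi16 fibroblasts, an interstitial progenitor population with 3497 control and 1408 IMQ cells, had Lpl at 239 and 536 CPM, Plin2 at 26.9 and 76.3 CPM and Apod at 300 and 2101 CPM. These were 2.25-fold (2.18 to 2.31), 2.84-fold (2.62 to 3.08) and 7-fold (6.86 to 7.15) higher. Here 4 genes were called higher against a background of 8.35% and 2 lower against 5.2%. The fourth, Cd36, rested on 16 and 18 UMIs and was not called without its highest cell. Fabp4 was 2.35-fold lower (1.83 to 3.07) with all cells, at 9.03 and 3.84 CPM, with 312 of 346 control UMIs in 1 cell. Without the highest cells it stood at 0.888 and 2.85 CPM and was called higher. The other gene called lower, Adipoq, came from the same control cell, with 42 UMIs against 0, at least 7.05-fold lower when 3 counts are set for the IMQ sum, while the exact interval of 42 against 0 reaches down to 5.49-fold.

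Gdf10 Vtn perivascular fibroblasts (200 control and 295 IMQ cells) had the highest Lpl of the 4 subtypes in both libraries, 585 CPM (543 to 628) and 955 CPM (925 to 987), a ratio of 1.63 that was not called. They had 3 genes called higher, beside a background of 6.75%, and 0 lower, beside 2.42%. Fabp4 had 2 control UMIs and 137 IMQ UMIs, or 1.58 CPM (0.191 to 5.70) and 35.5 CPM (29.8 to 42), 22.5-fold higher (6.11 to 188). Of the IMQ UMIs the highest cell held 15, and 10 of the 295 cells held 50%. Pericytes and blood endothelial cells of the IMQ library had Fabp4 at 2088 and 2646 CPM, and the part of their RNA here was not tested. Apod was 3.54-fold higher (3.32 to 3.77), from 865 to 3058 CPM. Fabp5 was called higher at 7.89 and 76.7 CPM, but 1 cell held 170 of the 296 IMQ UMIs and free RNA could give 97.6 CPM.

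Papillary fibroblasts, the upper dermal population with 222 control and 65 IMQ cells, had the highest ratio of Apoe among the 4. Apoe stood at 539 CPM (513 to 567) in the control and 2985 CPM (2892 to 3080) in the IMQ library, 5.53-fold higher (5.21 to 5.87), and 506 and 2871 CPM without the highest cells. Of the IMQ UMIs, 50% came from 9 of the 65 cells. In the other 3 subtypes the ratio of Apoe was 1.91, 0.663 and 0.935, whose intervals lay below that of papillary cells. Lpl was lowest in this subtype in both libraries, at 12.3 and 30.6 CPM. Papillary cells had 5 genes called higher, beside a background of 14.3%, and 0 lower, beside 4.8%. Of the 5, Lpl and Apod were no longer called without their highest cells.

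Dermal sheath fibroblasts, contractile cells around the follicle (133 and 174 cells), had Apod as the 1 gene called, 2.05-fold higher (1.85 to 2.28) at 352 and 723 CPM, beside a background of 9.13% higher and 3.22% lower. It was not called without the highest cells, at a log2 ratio of 0.99. Fibroblasts that met no subtype, 2801 and 1696 cells, had Lpl 5.14-fold (4.97 to 5.32) and Apod 9.07-fold (8.88 to 9.27) higher. They had 5 genes called higher, beside 12.5%, and 0 lower, beside 5.42%.

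**Figure D3:**
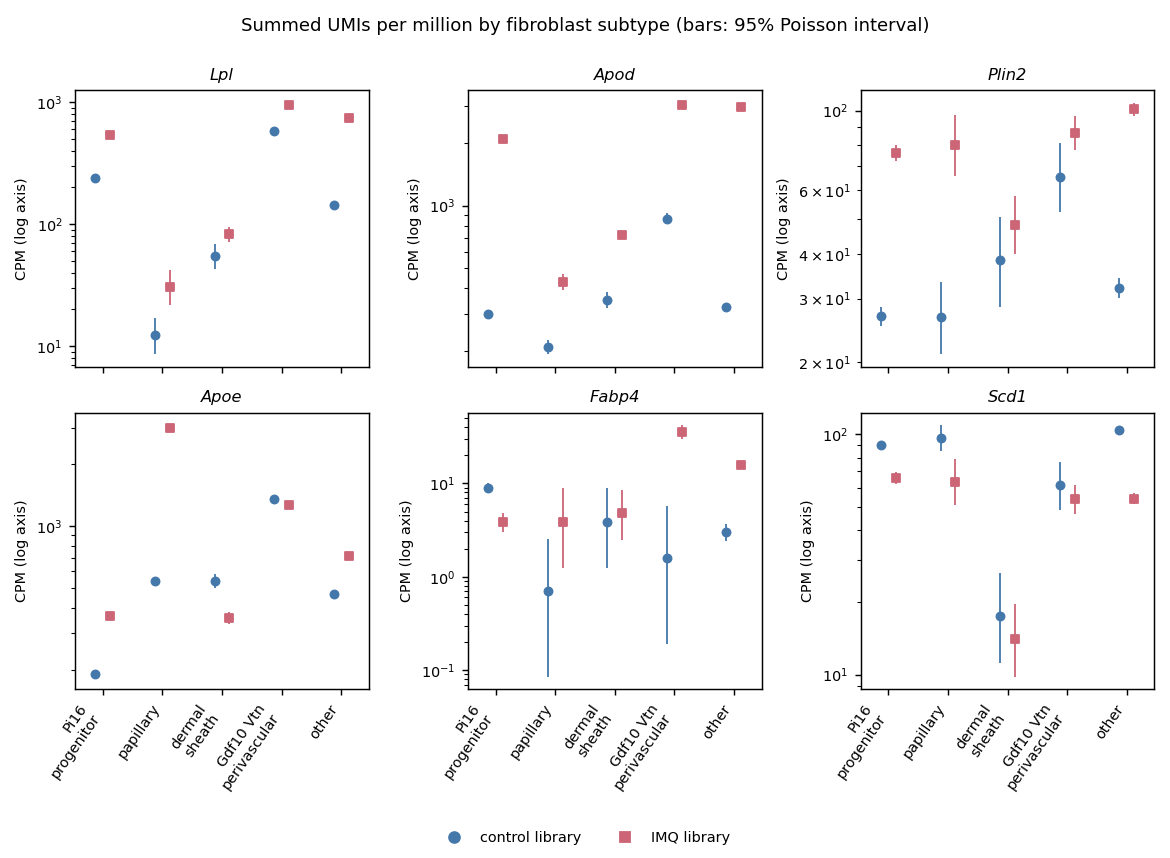
CPM on a log axis for 6 genes in 4 fibroblast subtypes and in fibroblasts of no subtype, for the control (circles) and IMQ (squares) libraries, with 95% Poisson intervals. Lpl is lowest in papillary cells and highest in Gdf10 Vtn cells in both libraries, and papillary cells stand out in Apoe in the IMQ library at 2985 CPM.

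The Saa3-high range, fibroblasts with at least 3 of 6 acute-phase markers detected, held 7 control cells and 1611 IMQ cells, so it could not be compared between libraries. The range was set after the values had been seen, and 1462 IMQ fibroblasts had 2 or 3 of the markers. Within the IMQ library the Saa3-high cells had 836 CPM (825 to 846) of Lpl, 3107 CPM of Apod and 108 CPM of Plin2. The 2075 IMQ fibroblasts below the edge had 370 CPM (362 to 378) of Lpl, 1697 CPM of Apod and 63.1 CPM of Plin2, and their median depth was 10640 UMIs against 18182. Against 6927 control fibroblasts below the edge, these cells still had Apod 5.36-fold (5.27 to 5.45) and Plin2 2.10-fold (1.96 to 2.24) higher, while Lpl was 1.92-fold (1.87 to 1.97) higher and not called. Of the 10 genes 3 were called higher there and 1 lower, beside 13.8% and 4.8% of all genes. The median log2 ratio of the 10 was -0.0814 there, below the 0.35 of all genes.

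In the other 5 lineages, genes were called higher in 11 cases and lower in 6. In keratinocytes 4 genes were higher, beside a background of 11% of 14138 genes, and 1 lower, beside 11.5%. Of the 10 genes 9 were measured there. Fabp5 stood at 1388 CPM (1376 to 1401) in the control and 8469 CPM (8447 to 8492) in the IMQ library, 6.10-fold higher (6.04 to 6.16). The gene was found in 47942 and 544731 UMIs. In the IMQ library the highest cell held 8710 of them, 1.6%. Words of 50 bases of the Fabp5 transcript are shared with 5 processed pseudogenes, up to 184 of 938 words for one of them. None of these 5 is among the genes of the count tables, and their effect on the level of Fabp5 was not tested. Scd1 shares words with Scd2, Scd3 and Scd4, which are counted here, up to 167 of 4841 for Scd3. The effect of that was not tested either. The 13 neutrophil markers, among them S100a8 and S100a9, which inflamed keratinocytes also express, summed to 49.3 and 5615 CPM in this gate, with 3 and 1 of them at 0, and their part in the result was not tested.

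Keratinocytes were split, after the values had been seen, by leading keratin (Krt5 and Krt14 of the basal layer against Krt10 and Krtdap of the layers above). Krt14-leading cells (633 control and 1363 IMQ) had Fabp5 at 114 and 4509 CPM, 39.6-fold higher (37.7 to 41.7). Krt10-leading cells (566 and 171) had 2763 and 32941 CPM, 11.9-fold higher (11.8 to 12.1). Krt79-high cells (394 and 564), named for a keratin of the upper hair follicle, had 653 and 10179 CPM, 15.6-fold higher (15.1 to 16.1). The edge of that range was 5 Krt79 UMIs in 10000, and 24 control and 40 IMQ cells lay near it. The ranges had the same order in both libraries, with Krt10-leading cells at the top. The fold over all keratinocytes was below that of every range, and the make-up of the gate differed, with Krt10-leading cells 566 of 1593 in the control and 171 of 2098 in the IMQ library.

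**Figure D4:**
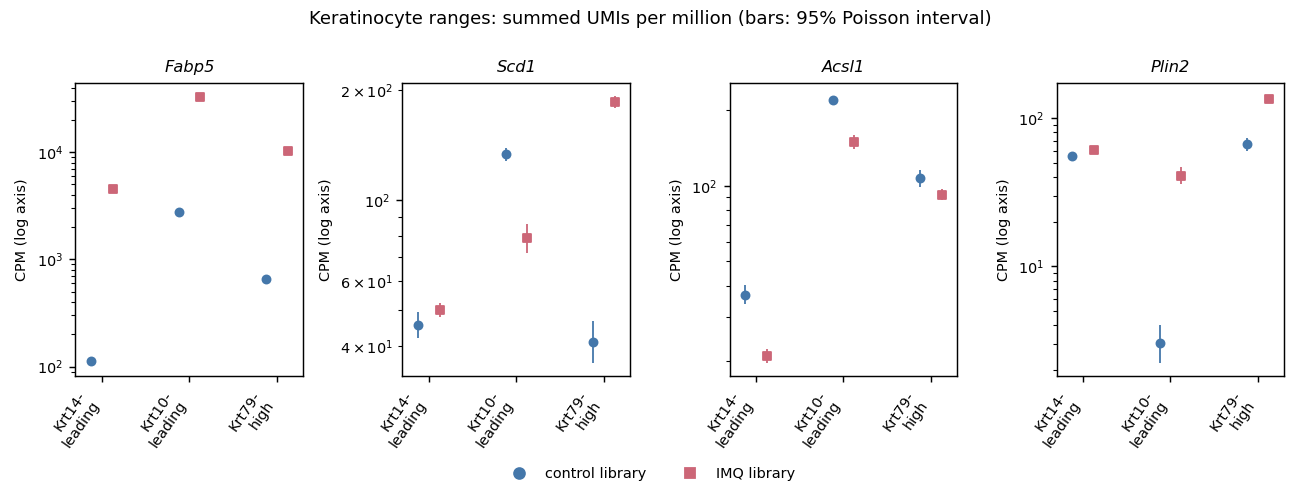
CPM on a log axis for 4 genes in Krt14-leading, Krt10-leading and Krt79-high keratinocytes, control (circles) and IMQ (squares) libraries, with 95% Poisson intervals. Fabp5 is higher in the IMQ library in each range, and Scd1 is higher in the Krt79-high range, at 41.1 and 185 CPM.

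The other genes were less far apart in keratinocytes, apart from Cd36. Acsl1, which activates fatty acids, was 2.56-fold lower (2.44 to 2.68), at 130 CPM (126 to 134) and 50.8 CPM (49.1 to 52.6). Within the 3 ranges it was 1.75-fold, 1.46-fold and 1.16-fold lower in Krt14-leading, Krt10-leading and Krt79-high cells, and called in none. Plin2 was 2.32-fold higher (2.18 to 2.48), at 33.6 and 78 CPM. In Krt10-leading cells it had 3.03 and 40.8 CPM, 13.5-fold higher (9.80 to 18.8), and in Krt14-leading cells 55.1 and 60.7 CPM. Lpl was higher at 6.63 and 22.3 CPM, low levels of which free RNA could give 2.88 and 3.91. Cd36 had 2 UMIs in 1 control cell and 34 in the IMQ library, a ratio of 9.13 (2.34 to 78.4).

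Scd1 had a ratio of 1.04 (0.994 to 1.09) over all keratinocytes, at 84.4 and 87.7 CPM, but it was 4.51-fold higher (3.94 to 5.19) in the Krt79-high range, at 41.1 and 185 CPM, and 1.70-fold lower (1.53 to 1.89) in Krt10-leading cells. Of the 3091 IMQ UMIs in the Krt79-high range 321 were in 1 cell and 24 cells held 50%. Scd1 is strongly expressed in sebocytes, and the 10 sebocyte markers summed to 111 CPM in the control and 495 CPM in the IMQ library in that range, with 2 and 1 of them at 0. Their part in the result was not tested. Apoe stood at 4248 CPM (4226 to 4270) and 4750 CPM (4733 to 4767), and not called over all of them. In Krt10-leading cells it was 2.01-fold lower (1.94 to 2.08), at 1396 and 694 CPM, where 5.97% of genes were higher and 19.8% lower by the same rule. The shares were 8.59% and 12% in the Krt79-high and 8.23% and 9.35% in the Krt14-leading range.

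Macrophages and monocytes went the other way for 3 genes. Beside a background of 6.22% higher and 10% lower of 7253 genes, 1 was higher and 3 lower of the 8 measured. Apoe, which macrophages secrete to carry cholesterol away, had 16007 CPM (15600 to 16423) in 77 control cells and 2607 CPM (2534 to 2682) in 270 IMQ cells, 6.14-fold lower (5.91 to 6.38). Cd36, a scavenger receptor here, was 3.57-fold lower (2.59 to 4.89), at 192 and 53.8 CPM. Lpl was 2.83-fold lower (2.23 to 3.57), at 315 and 111 CPM. Without the highest cells the log2 ratios were -2.63, -1.88 and -1.48, and all 3 were still called. Fabp5 was higher at 49.3 and 273 CPM, though free RNA could give 98.4 CPM in the IMQ library. Of its 18 control UMIs 10 were in 1 cell, and without the highest cells it stood at 22.4 and 238 CPM and was still called. Plin2 stood at 277 CPM (225 to 336) and 317 CPM (292 to 344), a ratio of 1.15 (0.926 to 1.43), so a 2-fold difference lay outside its interval.

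The 13 neutrophil markers summed to 359 and 1672 CPM and the 14 dendritic markers to 5019 and 2262 CPM in this gate, and their part in the results was not tested. In fibroblasts the same 14 summed to 934 and 1352 CPM. The make-up of the gate differed between libraries, with 56 of 77 control and 93 of 270 IMQ cells having at least 3 UMIs of C1qa and C1qb, which mark resident macrophages. In this C1q-high range, set after the values had been seen, Apoe was 4.65-fold lower (4.46 to 4.84), at 22086 and 4754 CPM, and Cd36 2.78-fold lower (1.98 to 3.91), at 269 and 96.7 CPM. Lpl was 1.79-fold lower (1.39 to 2.30), at 400 and 223 CPM, and no longer called. In that range 8.12% of genes were higher and 10.2% lower. The C1q-low cells, 21 in the control library and too few to compare, had 925 CPM of Apoe there.

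In pericytes and smooth muscle cells 2 genes were higher, beside 13.1%, and 1 lower, beside 10.3%, of 8999 genes, with 8 of the 10 measured. Fabp4 had its highest level of the 6 lineages here, 1265 CPM (1205 to 1328) and 2088 CPM (2022 to 2156), a ratio of 1.65 (1.56 to 1.75) that was not called. A Fabp4 UMI was in 80.8% and 77.4% of these cells, against 0.478% and 0.287% of T and NK cells. The 14 blood endothelial markers summed to 175 and 516 CPM in this gate, with 9 and 6 of them at 0, and the part of endothelial RNA was not tested. Fabp5 was 7.96-fold higher (5.73 to 11.4), at 30 and 239 CPM, above the 31.6 CPM that free RNA could give in the IMQ library. Apod was higher, at 6.16 and 25.3 CPM with 2.72 and 7.51 from free RNA, and Apoe lower, at 54.6 and 25.9 CPM with 20.7 and 19.8 from free RNA. The 20 fibroblast markers summed to 1267 and 3291 CPM in this gate, and their part was not tested.

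Schwann cells, the glia of skin nerves, had 1 gene called higher, beside 3.43%, and 0 lower, beside 2.37%, of 6929 genes, with 6 of the 10 measured. It was Apod, with 986 CPM (903 to 1073) in the control and 3714 CPM (3567 to 3866) in the IMQ library, 3.77-fold higher (3.43 to 4.15). Scd1 had its highest level of the 6 lineages here, 311 CPM (266 to 362) and 449 CPM (399 to 504), a ratio of 1.44 (1.19 to 1.76). Apoe, at 453 and 847 CPM, was called once the highest cells were left out, at a log2 ratio of 1.09.

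T and NK cells carried little of the 10 genes, 5 of which reached 20 UMIs. Of these 3 were higher, beside 6.92%, and 1 lower, beside 7.28%, of 8507 genes. Apod was called higher at 23.1 and 109 CPM, but 198 of its 217 IMQ UMIs were in 1 cell, and without the highest cells it stood at 13.4 and 9.60 CPM. Apoe was called lower with 127 of 204 control UMIs in 1 cell, and free RNA could give more than the 225 CPM seen, 310. In the IMQ library too free RNA could give more than the 33.6 CPM seen. Without the highest cells Apoe stood at 86.7 and 31.6 CPM and was still called, but neither level can be told from background. In the control library the 20 keratinocyte markers summed to 2277 CPM in this gate, against 410 CPM in the IMQ library. Fabp5 was 2.92-fold higher (2.16 to 4.02), at 55.1 and 161 CPM. Free RNA was put at 19.5% of control and 1.82% of IMQ UMIs in this gate, and Fabp5 stood at 458 and 4185 CPM over all cells. At these shares free RNA could give more than the 55.1 CPM seen in the control library and part of the 161 CPM in the IMQ library. The control level of Fabp5 therefore cannot be told from background. Plin2 was 2.17-fold higher (1.40 to 3.48), at 27.6 and 59.7 CPM. The 13 neutrophil markers summed to 24.3 CPM in the control and 195 CPM in the IMQ T and NK cells, with 12 and 6 of them at 0, and IMQ neutrophils held Plin2 at 315 CPM (282 to 352). Their part in the result was not tested.

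Blood endothelial cells, of which the control library had 39, held more Fabp4 and Cd36 than each of the 6 lineages compared above, in both libraries. Fabp4 stood at 4279 and 2646 CPM, but 1 control cell had 674 of 1146 UMIs, and without the highest cells the levels were 1892 and 2516 CPM. Cd36 stood at 694 CPM (598 to 802) and 160 CPM (143 to 178), or 457 and 152 CPM without the highest cells. The order of Fabp4, blood endothelial cells above pericytes, held in both libraries and the intervals did not overlap.

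**Figure D5:**
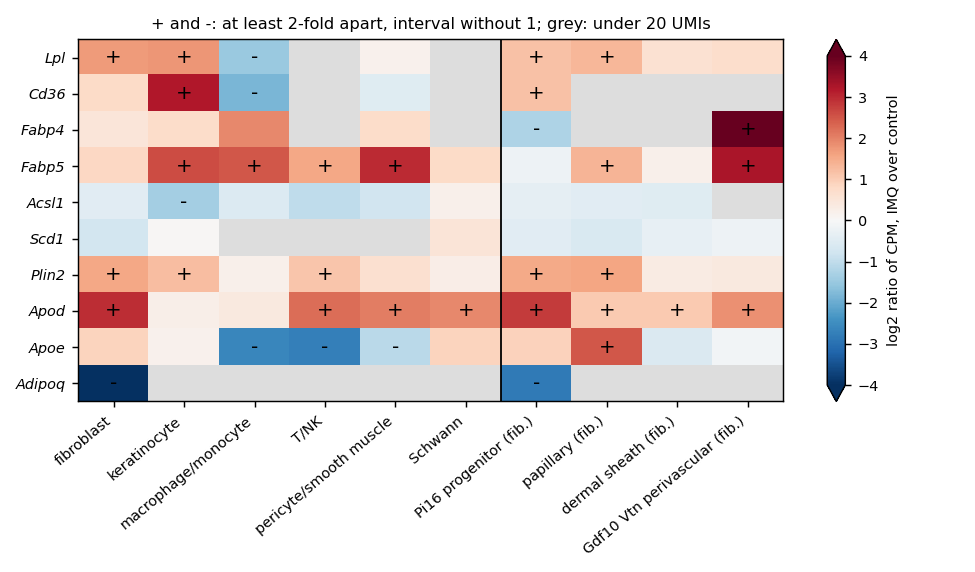
Log2 ratio of CPM, IMQ over control library, by colour, for the 10 genes (rows) in 6 lineages and, right of the line, 4 fibroblast subtypes (columns). Plus and minus signs mark calls and grey marks pairs under 20 UMIs. Apod carries a plus in 8 of 10 columns, and Apoe carries minus signs in macrophages, T and NK cells and pericytes but a plus in papillary fibroblasts.

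Beside the 10, 72 further lipid genes were followed, grouped by step. Unlike the 10, some of them were gate markers: Plin1, Plin4, Cidec and Retn of mature adipocytes and Cidea of sebocytes. In fibroblasts 64 were measured, of which 5 were higher, 5 lower and 54 neither, with a median log2 ratio of 0.19, below the 0.25 of all genes. The higher ones came from 5 of the 8 groups, beside the 10.9% higher and 5.4% lower of all genes. Rbp4, a retinol carrier, was at 11.9 and 33.8 CPM, 2.85-fold higher (2.63 to 3.09). Fads2, a desaturase, had 39 and 112 UMIs and was 4-fold higher (2.76 to 5.92). Angptl4, an inhibitor of lipoprotein lipase, was 2.34-fold higher (2.24 to 2.45) at 43.1 and 101 CPM. G0s2, an inhibitor of the lipase ATGL, was 2.42-fold higher (2.24 to 2.61). The fifth, Lipa, a lysosomal lipase, is named outside the rule for naming genes because the count was small, at 24.4 and 53.8 CPM. Of the 5 lower, Slc27a6, a fatty acid transporter, stood at 11.1 and 1.33 CPM, 8.36-fold lower (6.56 to 10.8), and Vldlr, a lipoprotein receptor, at 35.6 and 12.8 CPM, 2.77-fold lower (2.55 to 3.02). The other 3 were the adipocyte genes Cfd, Plin1 and Cidec, which did not reach the minimum of 20 UMIs without the highest cell. As Plin1 and Cidec helped to place cells, cells rich in them could fall outside the fibroblast gate. The IMQ cell with 30 Plin1 and 109 Cidec UMIs did so. Plin1 and Cidec are likewise named outside the rule. Cfd had 757 control UMIs in fibroblasts and 751 of them were in the Adipoq cell described above. Triglyceride synthesis and lipid efflux genes had no call in fibroblasts among the 8 and 6 measured.

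In macrophages and monocytes 39 of the 72 were measured, and 1 was higher and 3 lower, beside 6.22% higher and 10% lower of all genes measured there. Hilpda, which inhibits ATGL at droplets, had 4 control and 344 IMQ UMIs, 17.0-fold higher (6.6 to 62.9). Pltp, which moves phospholipid between lipoproteins, was 2.88-fold lower (2.58 to 3.22), at 1362 and 472 CPM. Abca1, a cholesterol exporter, was 2.06-fold lower (1.66 to 2.53), at 356 and 173 CPM, and not called without its highest cells. The third lower gene, Lpin1, a phosphatase of triglyceride synthesis, had 28 and 22 UMIs and is named outside the rule.

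The genes most like 9 of the members over 18 sums, one for each lineage and library with at least 50 cells, are given as a description, since sums of one library share depth and free RNA. Fabp4 was most like Esam, an endothelial gate marker (Pearson r of log2(CPM + 1) 0.954), Gpr4 and Tmem255b. Apod was most like Cdh11 (0.912), Ak5 and Pcdh20, Scd1 like Fzd3 (0.923), Matn2 and Kif21a, and Fabp5 like Car12 (0.896), Gjb2 and Gsdmc. Plin2 was most like Synj1, Scand1 and Mapkapk2 (0.87, 0.87 and 0.865), Lpl like Gas6, Ctsb and Hebp1 (0.828, 0.823 and 0.817), and Cd36 like 2500002B13Rik (0.795), Mpp1 and Cd93. Apoe was most like Rap2b (0.779), Blnk and Pak1, and Acsl1 like Cgn (0.769), Smim5 and Rassf7.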

How the data were processed

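The raw UMI counts per gene and cell were deposited by the authors, who used Cell Ranger 3.0.2 and Seurat 2.0 with mm10 per the submitters' processing notes. The header of the deposited count matrix names Cell Ranger 5.0.0 instead. Cells with at least 200 genes and at most 10% mitochondrial UMIs were kept. Each was placed in a lineage when at least 3 markers and 30% of the list were detected, 15 points above the next list. Doublets were kept, and Scrublet marked 422 control and 110 IMQ cells.

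UMIs were summed per class and divided by the class total. Levels have exact Poisson intervals, ratios exact conditional binomial intervals and shares Clopper-Pearson intervals at 95%. There is 1 library per group, so no test was made and no p-value is given. Depth ran from 500 UMIs per barcode, with medians of 9596 and 12650.

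The members and gene lists were chosen with earlier results of these data known. Gate thresholds, cluster naming, the keratinocyte, C1q and Saa3 ranges and the form of the free RNA estimate were chosen after values were seen. An earlier form of that estimate gave 15.2% and 11.3% in fibroblasts. All 10 members are named. Of the other lipid genes, those named in fibroblasts and macrophages are the 4 highest and 4 lowest called genes with at least 100 UMIs in order of the end of the interval closest to a ratio of 1, with the exceptions stated. Likeness used genes with at least 10 CPM in 1 sum. The likeness of Adipoq is not reported here. Gene positions are from GENCODE M21 on GRCm38. Python 3.11.15, numpy 2.4.6, scipy 1.17.1, pandas 2.3.3, scanpy 1.11.5, leidenalg 0.10.2 and matplotlib 3.10.9 were used. The ratio code was tested on simulated data. Alternatives for doublets, cell filters, gates, clusters, scaling, free RNA, low counts and the highest cell were tried.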

Additional observations from a re-analysis of the deposited data

Results flagged for a closer look

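Lpl, the secreted lipase, went opposite ways in different lineages. It was higher in IMQ fibroblasts (log2 ratio 1.71) and lower in IMQ macrophages and monocytes (-1.5), log2 ratios that lie 3.21 apart. In keratinocytes it was higher as well (1.75), which lies 3.25 from the macrophage ratio. Cd36 was higher in keratinocytes (3.19, on 2 control UMIs) and lower in macrophages and monocytes (-1.84), a gap of 5.03. With 1 library per condition these differences between lineages were not tested. Within C1q-high macrophages Lpl was lower by less than 2-fold.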

How the results depend on the processing

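No paired analysis was possible because each condition has 1 library and no result comes from a test. Members called higher and lower numbered 3 and 1 in fibroblasts, 13 and 2 over the subtypes, and other lipid genes 5 and 5 in fibroblasts. With a stricter gate these became 5 members higher in fibroblasts, 5 higher and 0 lower over the subtypes, and 2 other lipid genes lower. Of all genes in fibroblasts 11.1% were higher and 5.4% lower with that gate. With it Apod in T and NK cells (-0.74) and Fabp4 in Pi16 fibroblasts (0.84) changed sign on the log2 scale. With Leiden clusters in place of gates, 7 members were higher and 0 lower in fibroblasts, and 9 other lipid genes were higher and 2 lower. Of all genes in these fibroblasts 10.7% were higher and 4.36% lower. Leaving out the highest cells changed 2 labels over the 6 lineages with clusters and 6 with gates. A fall under 20 UMIs counts as a change. Of the 6 with gates, Fabp4 and Apod in macrophages and monocytes and Acsl1 in T and NK cells only fell under 20 UMIs. With clusters, Adipoq in fibroblasts (1.16) and Apoe in T and NK cells (0.38) changed sign. Other lipid genes called higher numbered 3 with a mean over cells and 3 when divided by the class median, which left 7 members higher over the subtypes. The share of all fibroblast genes called higher was 10.7% with a mean over cells and 7.14% when divided by the class median. With free RNA subtracted, 2 members were lower in fibroblasts, beside 4.02% of 14335 genes lower and 12.8% higher. Without the highest cell, 2 other lipid genes were lower in fibroblasts, beside 5.52% of all genes. Over the subtypes 0 members were lower that way, and Apod in T and NK cells (-0.48) and Fabp4 in Pi16 fibroblasts (1.68) changed sign. The cause was not tested beyond the cells named in the report. Removing doublets, at least 500 genes per cell, at most 5% mitochondrial UMIs, or no minimum of UMIs left each of these counts within 1.5 times. Rescaling by a class median cannot alter which lineage leads within a library, so it gave no value for the 8 genes with 1 lead lineage. Depth limits Cd36, which rested on 70 control and 86 IMQ UMIs in fibroblasts.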
